A study of Jatropha curcas with 10 samples.

Results

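The genes described here are 120 transcripts of the inflorescence meristem of Jatropha curcas, an oilseed shrub, whose level fell in steps, first by 6 h and further by 12 h after gibberellin (GA3) treatment, and was back above the midpoint of the fall by 48 h. They were taken from 28447 gene IDs by a rule on measured values. With L as log2(RPKM + 1), where RPKM is reads scaled to gene length and library depth, a gene needed 5 RPKM or more on average across the 10 libraries, a 6 h mean of L at or below that of 0 h, a further drop of at least 0.75 from 6 h to 12 h, and a change at 48 h above 0.5 times that at 12 h. Of 14258 genes with enough signal, 270 showed the stepwise fall and 195 of these also met the 48 h condition. They were ranked by the gap between the lower 0 h library and the higher 12 h library, and the first 120 were taken.

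All libraries came from total RNA of inflorescence meristems of 3-year-old plants collected at 0, 6, 12, 24 and 48 h after GA3, with 2 libraries at each time. Every group carries the same description apart from the time, and neither the dose nor the way GA3 was applied is stated in the labels. Without untreated plants at the later times, effects of GA3, of elapsed time and of the hour of sampling cannot be told apart. In such bulk tissue, fewer cells of a type and less RNA per cell cannot be told apart either. Nothing in the labels shows that both libraries of a time came from different plants. The p-values therefore reflect only library-to-library spread, which may be technical.

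Gibberellins are plant hormones that promote stem elongation, seed germination and, depending on the species, flowering. The hormone binds the receptor GID1, and the complex leads to the destruction of DELLA proteins, which otherwise restrain growth-promoting transcription factors. In shoot meristems, low gibberellin activity is known to help keep cells undifferentiated, and in woody perennials gibberellin often delays or suppresses flowering. Which of the 120 genes belong to these pathways cannot be said, because the deposited tables hold IDs without names, and 0 of them matched an entry in the RefSeq gene table. The meristem label could not be checked against marker genes for the same reason.

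Depth was 15934167 to 24448189 reads per library, recovered from the values, and 109 of the 120 genes had at least 10 reads in every library. Libraries numbered 1 and 2 differed with gene length at each time, in the opposite sense at 0 h from the treated times, and the values that touch a result stand beside it.

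The 120 genes were well expressed before treatment. Their 0 h means ranged from 6.58 to 8341 RPKM with a median of 75.3, and 50 of them (41.7%) stood at 100 RPKM or more, against 14.9% of all 14258 genes at or above the 5 RPKM limit. The rule itself favours such levels, since a gene low at 0 h has little room for a wide gap to 12 h. The 75 genes that met every threshold but ranked after the 120 had a median of 78.1 RPKM at 0 h. Their median length was 820.5 bases, with quartiles of 585 and 1322.25, against a median of 1098 for those 14258 genes. Of the 120 IDs, 117 were JCGZ locus tags, all with lengths divisible by 3 and so coding lengths, and 3, among them Novel00163, carried another prefix.

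As a group they took up a visible part of the transcriptome. They held 3.34% and 3.56% of all reads in the 0 h libraries, 1.52% and 1.58% after 6 h, 0.324% and 0.198% after 12 h, 4.57% and 2.33% at 24 h, and 2.82% and 2.43% after 48 h. The 2 libraries of a time lay close together at 0, 6 and 48 h and far apart at 24 h, where one exceeded both 0 h libraries and the other fell below both. The 3 genes highest at 0 h, JCGZ_04588, JCGZ_04587 and JCGZ_02232, supplied 32.8% of these reads at 0 h. Without them the share was 2.32% ± 0.015 at 0 h, 1.05% ± 0.045 after 6 h, 0.245% ± 0.086 after 12 h, 2.17% ± 0.98 at 24 h and 1.70% ± 0.14 after 48 h (SD, n = 2 each), so the course did not rest on them. The fall in this share to 12 h follows from how the genes were chosen.

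**Figure D1:**
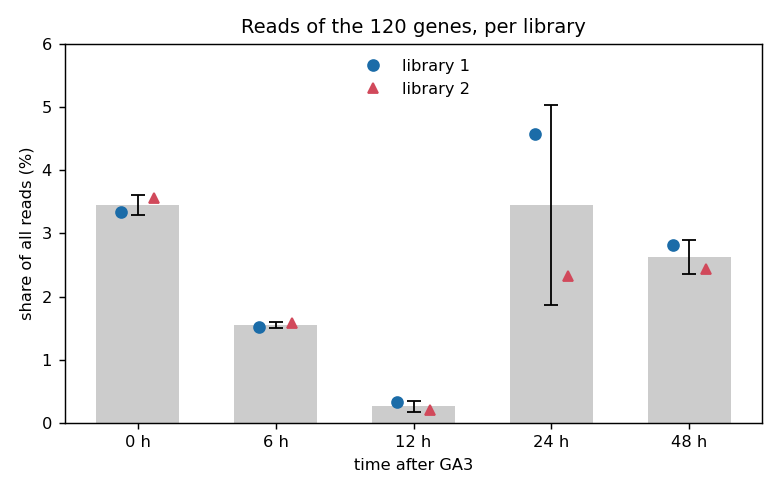
Percent of all recovered reads (vertical axis) that came from the 120 genes at each time after GA3 (horizontal axis); bars are means, error bars SD of 2 libraries, and points the single libraries. The share fell from 3.34% and 3.56% at 0 h to 0.324% and 0.198% at 12 h, and the 2 libraries of 24 h stood apart at 4.57% and 2.33%.

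The fall itself was chosen by the rule, so its depth is given as a description. At 12 h the median change from 0 h was -3.08 (log2), an 8.43-fold drop, and the quartiles were -4.16 and -2.45. By that time 108 of the 120 genes were down at least 4-fold, 64 at least 8-fold, 35 at least 16-fold and 7 at least 64-fold. Of the 120, 55 had a 12 h mean under 5 RPKM and 13 under 1 RPKM. Most were still well covered, with median read counts of 130 and 84 in the 12 h libraries. In 3 genes neither 12 h library held more than 3 reads. None of the 120 had 0 reads in both.

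The gene ranked first was JCGZ_02232 (585 coding bases). It stood at 3457 and 2423 RPKM in the 0 h libraries, 101.2 and 223.9 after 6 h, 3.98 and 5.28 after 12 h, 4782 and 858 at 24 h, and 1793 and 1419 after 48 h. Its level at 12 h came from 48 and 59 reads, and the 12 h libraries lay below every other library of this gene. On the log2(RPKM + 1) scale the 12 h fall was -9.02, or 518-fold, the deepest of the 120.

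JCGZ_23011 (1104 bases), ranked second, had 154 and 162 RPKM at 0 h, 48.6 and 80.7 after 6 h, 0.527 and 0.617 after 12 h (12 and 13 reads), 113 and 99.8 at 24 h, and 126 and 144 after 48 h. On the log2 scale 19.8% of its fall was covered by 6 h: the change was -1.32 (log2) at 6 h and -6.66 at 12 h. At 24 h both libraries lay below both 0 h libraries but far above those of 12 h.

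At the edge of the rule, the last gene taken, JCGZ_01246, had a gap of 1.31 (log2) between its lower 0 h and higher 12 h library, and the first left out, JCGZ_07184, had 1.30. Their levels were 46.0 and 60.1 RPKM at 0 h against 17.3 and 18.0 at 12 h for the former, and 84.0 and 54.3 against 21.5 and 14.5 for the latter. The gene nearest to the step limit inside it dropped by 0.751 from 6 h to 12 h. Among genes that met all other conditions with a gap at least as large, the nearest outside dropped by 0.745. For the 48 h condition, the member nearest to the limit had regained 51.8% of its fall, and the nearest gene outside 47.9%.

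**Figure D2:**
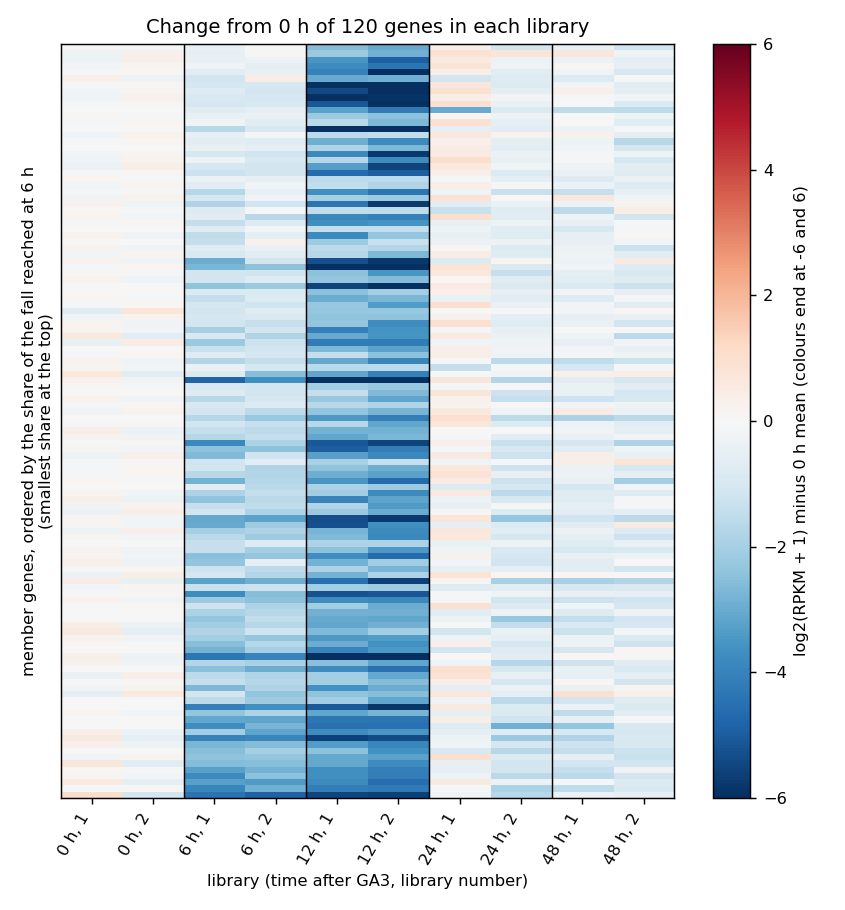
Change of each of the 120 genes (rows) from its 0 h mean in each of the 10 libraries (columns), in log2(RPKM + 1), with blue for lower and red for higher and colours ending at -6 and 6; rows are ordered by the share of the 12 h fall already reached at 6 h, smallest at the top. The 12 h columns are the darkest, the rows differ in how blue the 6 h columns are, and at 24 h library 1 is redder than library 2 (median changes of 0.16 and -0.70).

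The members differed in pace. At 6 h the median gene had covered 52.9% of its 12 h fall (log2 scale), with quartiles of 33.3% and 61.9% and a range of 8.27% to 83.3%. Under 25% was covered by 21 genes, 25% to 50% by 36, 50% to 75% by 57 and at least 75% by 6. The rule bounds this share from above, because it required a further drop of at least 0.75 from 6 h to 12 h. Sorted by this share, the 30 latest fallers had median changes of -0.61 at 6 h and -3.67 at 12 h, whereas the 30 earliest fallers had -2.40 and -3.40. The latest fallers also started higher, at a median of 200.4 RPKM at 0 h against 54.5 for the earliest and 71.4 for the 60 between. Changes of low genes are understated on the log2(RPKM + 1) scale. This affects the share reached at 6 h, so its link with the starting level is only a description.

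JCGZ_01387 (1440 bases) had covered the largest share at 6 h, 83.3%. It had 168 and 35.7 RPKM at 0 h, 2.70 and 1.70 after 6 h, 0.707 and 0.618 after 12 h, 69.7 and 23.0 at 24 h, and 60.3 and 55.7 after 48 h. Its 0 h libraries differed more than 4-fold, so the depth of its fall is poorly fixed. JCGZ_21579 (1338 bases), with 81.5% covered, went from 23.9 and 26.1 RPKM at 0 h to 0.703 and 2.50 at 6 h and 0.471 and 0.391 by 12 h. It reached 22.9 and 5.93 by 24 h and 8.02 and 12.8 by 48 h, with only 1 of the 24 h libraries near the starting level.

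From 6 h to 12 h the steepest drops were those of JCGZ_11643, JCGZ_23011 and JCGZ_00703, at -5.60, -5.34 and -5.09 (log2). JCGZ_11643 (750 bases) stood at 1057 and 1212 RPKM at 0 h and still at 537 and 585 at 6 h, but at 13.2 and 8.38 at 12 h. It then reached 1832 and 647 at 24 h and 1022 and 736 at 48 h. Both of its 12 h libraries lay far below all others. JCGZ_00703 (804 bases) followed the same order, at 1454 and 1770, 942 and 718, 36.6 and 14.6, 3069 and 1118, and 1959 and 1118 RPKM at 0, 6, 12, 24 and 48 h.

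JCGZ_04588 (798 bases), singled out after its values were seen because it was the most abundant member, held 6899 and 9783 RPKM at 0 h, 4340 and 4081 after 6 h, 129 and 136 after 12 h, 10812 and 7339 at 24 h, and 7763 and 7323 after 48 h. The gene with the preceding tag number, JCGZ_04587 (783 bases), was also a member, at 3505 and 3952, 1844 and 1975, 107 and 33.8, 7131 and 2778, and 3710 and 2080 RPKM at the same times. Both were 1.95-fold down at 6 h, and at 12 h every library of both lay far below those of 6 h. In all, 3 pairs of members carried consecutive JCGZ numbers, a feature looked for after the values were seen. Another was JCGZ_23010 with JCGZ_23011: JCGZ_23010 (720 bases) had 197 and 217 RPKM at 0 h, 15.1 and 16.8 after 12 h, and 154 and 170 at 24 h. The third pair was JCGZ_10652 and JCGZ_10653. Whether such genes share sequence, so that reads could be split between them, is not stated in the sources used here, and their values are uncertain in that respect.

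**Figure D3:**
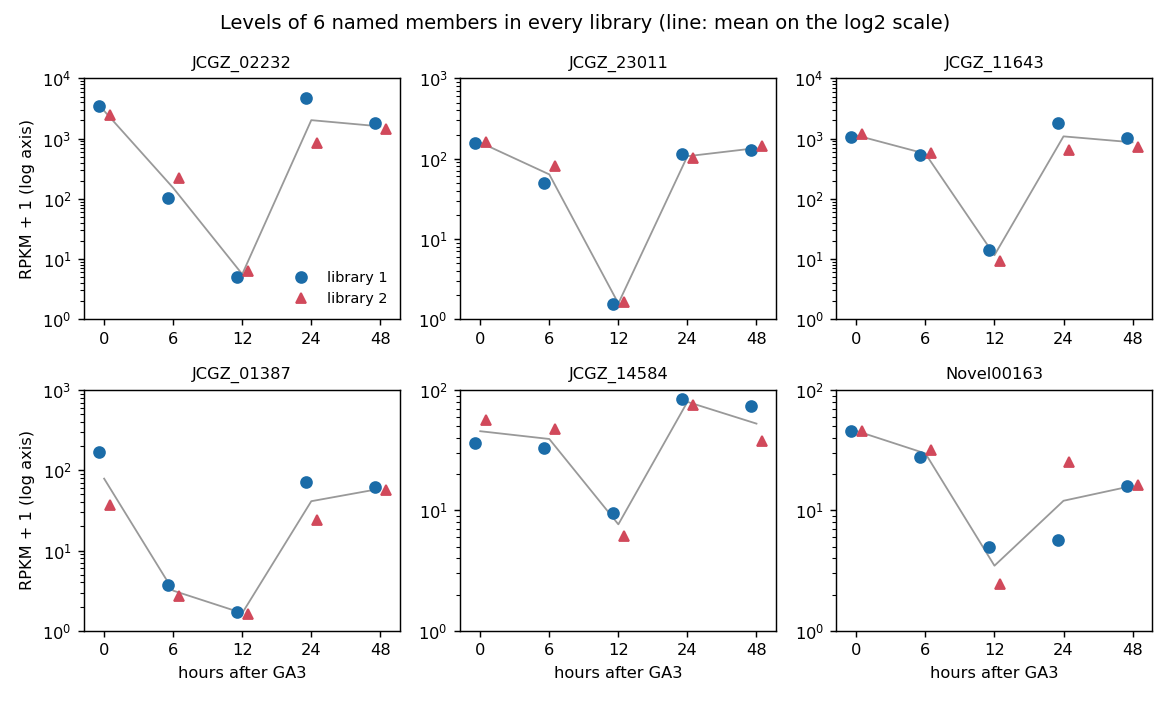
Level of 6 named members in each library, as RPKM + 1 on a log axis, against hours after GA3 (times evenly spaced); circles are library 1, triangles library 2, and the line joins the means on the log2 scale. JCGZ_11643 and JCGZ_23011 fell furthest on the log axis between 6 h and 12 h, JCGZ_01387 had fallen by 6 h, JCGZ_14584 ended above its 0 h level at 24 h in both libraries, and in Novel00163 library 1 was still at 4.71 RPKM at 24 h while library 2 reached 24.3.

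The tests of the steps use the contrasts that chose the genes, so nothing is read from their counts. All 120 genes passed the filter of a mean of at least 1 RPKM, which the rule itself ensures. Against 0 h, 93 of the 120 passed at 12 h (limma across 17403 genes, Benjamini-Hochberg adjusted p under 0.05), where 1.29% of all tested genes were called as falls. At 6 h against 0 h, 22 passed (0.649% of all tested genes), and from 6 h to 12 h, 13 passed (0.121%). Treated libraries of the same number deviated together, and with the number as a block among those 8 libraries 36 of the 120 passed from 6 h to 12 h (0.557% of all tested genes). In groups that did not overlap, both 6 h libraries lay below both 0 h libraries in 113 genes (18.3% of all tested genes) and both 12 h libraries below both 6 h libraries in 115 (14%). The counts moved when single libraries were left out, also libraries outside the comparison. Calls over all tested genes moved with them. At 12 h against 0 h, leaving out 0 h library 1 gave 24 calls and library 2 gave 33, and leaving out 12 h library 1 gave 56 and library 2 gave 47. At 6 h against 0 h, leaving out 0 h library 1 gave 1 call and library 2 gave 2. Leaving out either 6 h library gave 2, 48 h library 1 gave 13 and 48 h library 2 gave 14. From 6 h to 12 h, dropping either 0 h library left 3 calls and dropping either 6 h library left 1. Dropping 12 h library 2 left 2 and either 48 h library left 4.

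The 24 h libraries entered the choice of genes directly only through the filter on the mean of the 10 libraries. Averaged without them, 118 of the 120 genes still reached 5 RPKM, and the lowest of the others had 4.55, so 2 genes owed their place to the 24 h libraries. In both 24 h libraries all 120 genes lay above both 12 h libraries. The return is given as the share of the 12 h fall, on the log2 scale, that had been regained. At 24 h its median was 90.3%, with quartiles of 81.0% and 99.8% and a range of 30.95% to 131%. More than 50% was regained by 118 genes, at least 80% by 93 and more than 100% by 30. The 48 h condition of the rule bears on these values: the 75 stepwise genes it left out had a median return of 46.9% at 24 h. The median rise from 12 h to 24 h was 2.83 (log2).

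From 12 h to 24 h, 73 of the 120 genes rose (limma across 17403 genes, Benjamini-Hochberg adjusted p under 0.05), and 0 fell, whereas 0.85% of all tested genes were called as rises and 0.305% as falls. An unadjusted p under 0.05 was found in 118 of the 120 and in 11.7% of all tested genes. The 73 had a median rise of 3.32 (log2) and the other 47 one of 2.24, with standard errors of 0.21 to 0.80 over the 120 genes. Both 24 h libraries lay above both 12 h libraries in 120 of 120 genes and in 10.3% of all tested genes. They lay above both 6 h libraries in 93 genes (10.4% of all tested genes). With the library number as a block among the 8 treated libraries 107 of the 120 rose, and the calls over all tested genes grew too, to 2.9% as rises and 4.26% as falls. The 12 h libraries were chosen to be low in these genes, which by itself favours a rise. Dropping either 0 h library left 39 calls, 12 h library 1 left 40, 12 h library 2 left 33 and 24 h library 1 left 29. Fitted to only the 4 libraries compared, limma called 0 of the 120 and 0 of all tested genes. In that fit 116 of the 120 and 1178 of all tested genes had an unadjusted p under 0.05. With limma-voom on the recovered reads of all libraries, 53 of the 120 rose, and 90 of all tested genes. Calls over all tested genes were thus fewer too, also with single libraries dropped.

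JCGZ_02380 (366 bases), with the largest rise after JCGZ_02232, went from 4.90 and 2.86 RPKM at 12 h to 966 and 292 at 24 h, having started at 502 and 581 at 0 h. Its rise was 6.80 ± 0.52 (log2, SE; limma adjusted p = 0.00232). JCGZ_23011 rose by 6.09 ± 0.26 (limma adjusted p = 0.000144), the smallest p of the group. The smallest rises were in JCGZ_24656 (714 bases), at 83.7 and 80.8 RPKM at 12 h and 90.7 and 142 at 24 h, and in JCGZ_02179 (789 bases), at 2.46 and 2.65 and then 2.94 and 9.23. These 2 genes did not pass, with rises of 0.46 ± 0.57 and 0.84 ± 0.51 (limma adjusted p = 0.782 and 0.575). In both, library 1 of 24 h had stayed near the 12 h level and library 2 had not.

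The 2 libraries of 24 h gave different pictures of how complete the return was. In library 1 the median return was 106%, and 58 genes lay above both 0 h libraries, 25 between them and 37 below both. In library 2 the median return was 78.0%, and 1 gene lay above both 0 h libraries, 19 between them and 100 below both. Among all tested genes, 26.5% lay above both 0 h libraries in library 1 and 26.3% in library 2, and 56.0% and 37.0% lay below both. The members were higher in library 1 than in library 2 in 103 of 120 cases, by a median of 0.88 (log2) or 1.84-fold, whereas all tested genes had a median difference of -0.17 and 40.1% were higher in library 1.

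Gene length moved with this difference. Among the 40 shortest members (up to 684 bases) library 1 exceeded library 2 by a median of 1.36 (log2), and among the 40 longest (from 1032 bases) by 0.57. Over all tested genes within the same length limits the medians were 0.26 and -0.42, so the members lay above them at both ends. At 12 h the members were also higher in library 1, by a median of 0.44 against -0.11 for all tested genes, whereas at 6 h and 48 h the members' medians were -0.16 and 0.07 against -0.15 and -0.04. Those 3 times were used by the rule. Whether the difference at 24 h came from the plants, the sampling or the library preparation was not tested.

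**Figure D4:**
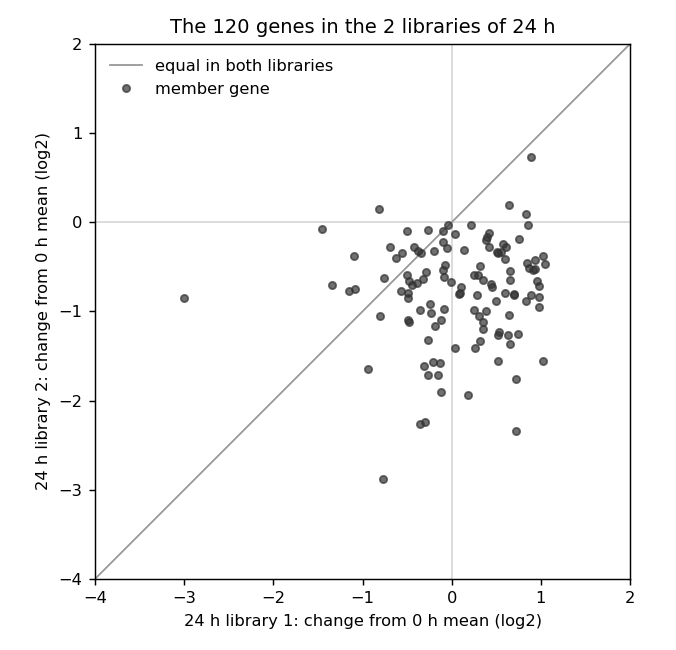
Change from the 0 h mean (log2) of each of the 120 genes in 24 h library 1 (horizontal axis) and 24 h library 2 (vertical axis); points below the diagonal line are higher in library 1. Of the 120 genes, 103 are below the line, and library 2 puts nearly all of them under their 0 h mean (median -0.70, against 0.16 in library 1).

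Measured against 0 h, the members ended 24 h slightly low. The median change was -0.34 (log2), with 90 of 120 genes below 0 h, while all tested genes had a median of -0.15 and 66.7% below 0 h. Both 24 h libraries lay below both 0 h libraries in 32 genes (26.7% of the members, against 21.2% of all tested genes), which is near the background. At least 2-fold down were 7 genes. The share of all tested genes that far down was not counted, so nothing is read from this number. In limma, 0 of the 120 differed from 0 h at 24 h after adjustment (0% of all tested genes; smallest limma adjusted p = 0.951), 6 had an unadjusted p under 0.05, all of them lower (3.3% of all tested genes either way), and limma-voom called 0. A missed threshold does not show that levels were equal: the standard error of a change was 0.47 at the median gene. The 0 h libraries were chosen to be high in these genes, which by itself lowers such changes. Without 24 h library 2 the median change was 0.16 and without library 1 it was -0.70, so its sign rested on 1 library.

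Single members spread to both sides of the 0 h level. JCGZ_14584 (378 bases) was the highest against 0 h, at 83.4 and 74.4 RPKM at 24 h against 35.4 and 55.9 at 0 h, 31.7 and 46.0 after 6 h and 8.59 and 5.13 after 12 h. It was the only member in which both 24 h libraries exceeded both 0 h libraries (9.02% of all tested genes did so), and it stood at 72.3 and 36.8 RPKM at 48 h. JCGZ_05186 (1410 bases) came next, at 46.8 and 27.6 RPKM at 24 h against 20.1 and 32.9 at 0 h and 2.749 and 6.499 at 12 h. At the other end, Novel00163 (902 bases) had 45.1 and 44.5 RPKM at 0 h, 3.92 and 1.45 after 12 h, 4.71 and 24.3 at 24 h and 14.9 and 15.2 after 48 h. JCGZ_09586 (1611 bases) had 24.7 and 23.8 RPKM at 0 h, 0.1203 and 0.1300 by 12 h (4 reads each), 13.8 and 2.44 at 24 h and 3.99 and 11.8 at 48 h. Both of these low genes lay below their 0 h libraries at every treated time.

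The pace of the fall and the level at 24 h went together in the class medians. The 30 latest fallers had a median return of 98.1% at 24 h, the 60 between 90.6% and the 30 earliest 82.1%. Their median changes from 0 h were -0.07, -0.31 and -0.67 (log2), with 16 of 30, 49 of 60 and 25 of 30 genes below 0 h. The order of the 3 return medians was the same in library 1 (111%, 106% and 92.8%) and in library 2 (87.6%, 76.8% and 71.9%). From 12 h to 24 h, 21 of 30, 34 of 60 and 18 of 30 genes of the classes passed, where 0.85% of all tested genes were called as rises. The classes were formed after the values had been seen and share the 0 h and 12 h libraries with the return, so the relation is a description without a test. The earliest class also held longer genes, with a median of 1033.5 bases against 798 for the latest and 804 for those between.

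**Figure D5:**
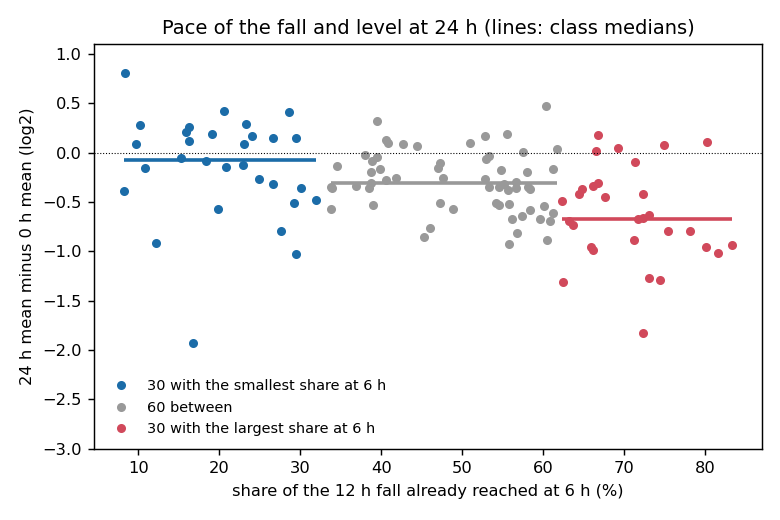
Change at 24 h from 0 h (vertical axis, log2) against the share of the 12 h fall already reached at 6 h (horizontal axis, percent) for the 120 genes; colours mark the 30 latest (smallest share), 60 intermediate and 30 earliest fallers (largest share) and lines their medians. The medians step down from -0.07 through -0.31 to -0.67, with wide overlap between the classes; both axes contain the 0 h libraries.

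By 48 h, a time that the rule used, the median return was 81.7%, with quartiles of 70.5% and 91.0%. The median change from 0 h was -0.55 (log2), with 110 of 120 genes below 0 h (52.8% of all tested genes). At least 2-fold down were 19, a count without a share over all tested genes beside it, from which nothing is read. Here the 2 libraries gave like medians of the return, at 86.4% and 80.5%. In them 93 and 95 of the genes lay below both 0 h libraries, against 39.0% and 38.3% of all tested genes. By length the libraries still differed: library 1 minus library 2 had a median of 0.35 (log2) in the 40 shortest members and -0.35 in the 40 longest. Over all tested genes within the same length limits the medians were 0.36 and -0.30. Both 48 h libraries were below both 0 h libraries in 78 genes (17.6% of all tested genes). The rule set a lower limit on the 48 h level and no upper one. It also chose the 0 h libraries to be high in these genes, which by itself favours levels below 0 h at 48 h.

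From 24 h to 48 h the members changed by a median of -0.30 (log2), and 88 of 120 were lower at 48 h, whereas all tested genes had a median of 0.11. In limma, 0 of the 120 passed (0% of all tested genes; smallest limma adjusted p = 0.905), 2 had an unadjusted p under 0.05 (1.89% of all tested genes), 1 up and 1 down, and limma-voom called 0. Both 48 h libraries lay below both 24 h libraries in 16 genes and above them in 6, against 8.5% and 17.9% of all tested genes. Without 24 h library 1 the median was 0.15 and without library 2 it was -0.71, so the direction followed the 24 h library used.

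JCGZ_17771 (321 bases), with the largest drop between these times, had 34.6 and 4.97 RPKM at 24 h and 3.73 and 4.68 at 48 h, after 15.99 and 17.07 at 0 h and 0.604 and 0 at 12 h (4 and 0 reads). Only its 24 h library 1 was high, and library 2 stood at the 48 h level. JCGZ_12382 (561 bases) went from 93.0 and 25.7 RPKM at 24 h to 32.4 and 17.8 at 48 h. In the other direction, JCGZ_00555 (1692 bases) went from 6.46 and 7.49 to 10.4 and 15.1 RPKM, above its 0 h libraries (7.48 and 8.54), and JCGZ_21086 (4146 bases, the longest member) from 115 and 92.8 to 106 and 234 RPKM. None of these 4 passed between 24 h and 48 h (limma adjusted p = 0.905 each), which does not show that their levels were equal.

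The 24 h level can be set beside that of other genes that fell in steps. Their median falls were less deep, so their percentages of return rest on smaller falls. The 75 genes that met every threshold but ranked after the 120 had fallen less, by a median of -1.44 (log2) at 12 h, and their median return at 24 h was 94.4%, at 123% in library 1 and 71.6% in library 2. A gap between the 24 h libraries was thus present in these genes too. The 75 stepwise genes left out by the 48 h condition had fallen by a median of -1.39 and stood at -1.26 at 48 h. Their median return at 24 h was 46.9%, with quartiles of 9.19% and 73.1%, and 35 of the 75 had regained more than 50%, against 118 of the 120. The difference was not tested, since the 2 sets also differ in the depth of the fall and were separated by a later time of the same course.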

How the data were processed

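For each of the 10 libraries the authors deposited a table of gene IDs and values with no unit named. These deposited values were taken as RPKM, since every one above 0 is a whole read count scaled by a gene-specific length and the library's depth. The submitters' processing notes name Bowtie 0.12.2 and mm8, a mouse build, without their role, and the sources used here give no read counter, annotation or filter. Read counts were rebuilt from the steps between values: all 203696 values above 0 were whole to within 0.01 read. The fits were tested on simulated data. Both libraries of each time shared 0 identical values above 0, and their reads differed beyond sampling noise (chi-square over degrees of freedom from 54.9 to 163).

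Testing used limma 3.58.1 under R 4.3.3 (trend, robust) on log2(RPKM + 1), for 17403 genes averaging 1 RPKM or more, with all 10 libraries in 1 model and time as a factor. P-values were adjusted by Benjamini-Hochberg over all genes within a comparison, at 0.05. Changes of low genes are understated on this scale. The difference between library 1 and library 2 correlated over genes at 0.537 to 0.698 between treated times and at -0.317 to -0.137 between 0 h and treated times. Library 1 minus library 2 also followed gene length, with a Spearman correlation of 0.41 at 0 h and -0.36 to -0.57 at treated times. Whether equal numbers mark a shared plant or batch was not tested, and no label says what they share. The alternatives covered the pseudocount, the filter, scaling, a replicate block, a length correction, limma-voom and each library left out. The members and the rule for named IDs (at most 2 rising and 2 falling per comparison, plus the genes at the edge of the ranking) were chosen with earlier results of these data known. IDs outside that rule are marked as chosen after their values were seen. Lists of named pathways could not be run without gene names.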

Additional observations from a re-analysis of the deposited data

Results flagged for a closer look

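Levels at 24 h differed from those at 12 h in 73 of the 120 genes, and levels at 12 h from those at 6 h in 13 (limma, adjusted p under 0.05), each tested as the difference between the times. The second count uses only contrasts of the rule and is a description. The first shares the 12 h libraries with the rule, which chose them to be low, and this by itself favours a rise. Over all tested genes, 0.85% were called as rises from 12 h to 24 h. Of the genes named below, JCGZ_02380 and JCGZ_04587 were picked for the size of their rise. Among the named members, the rise from 12 h to 24 h was 8.50 (log2) in JCGZ_02232, 6.80 in JCGZ_02380, 6.56 in JCGZ_11643, 6.26 in JCGZ_00703, 6.18 in JCGZ_04587 and 6.09 in JCGZ_23011. Of 22 alternatives, the call of these 6 genes was lost only in the fit restricted to the 4 libraries compared. It was 3.38 in JCGZ_14584, whose call was also lost without 12 h library 2 (limma adjusted p = 0.0565) and without 24 h library 1 (0.0697), within a range of 0.0018 to 0.134. It was 4.63 in JCGZ_01387, 3.83 in JCGZ_21086, 3.22 in JCGZ_12382, 2.80 in JCGZ_05186 and 1.94 in JCGZ_01246. Their calls held under 11, 16, 9, 13 and 11 of the 22 alternatives.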

How the results depend on the processing

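Of the 120 genes, the number called from 12 h to 24 h was 0 in the fit to 4 libraries and 29 to 77 when single libraries were left out. It was 107 with the replicate block among the 8 treated libraries, where all tested genes gave 504 rises and 741 falls in place of 148 and 53, and 98 with the block over all 10 (225 and 96 over all tested genes), and within 1.5 times 73 in the other alternatives. At 24 h against 0 h and 48 h against 24 h the count was 0 in each alternative. At 12 h against 0 h it was 24 to 103 without single libraries. At 6 h against 0 h it was 58 in the fit to 4 libraries, 41 with the replicate block over all 10 libraries, 50 with the block and a length correction, 38 with the length correction alone (chosen after seeing the data), 14 by limma-voom, and 1 to 30 without single libraries. From 6 h to 12 h it was 6 with no filter on low values, 4 with libraries centred on their median, 0 in the fit to 4 libraries, 25 and 36 with the replicate block over 10 or 8 libraries, 26 with the block and the length correction, 7 by limma-voom, and 1 to 16 without single libraries. The median return at 24 h was 88.6% to 95.0% under other pseudocounts, scaling and member choices and 78.0% to 106% without single libraries, and the median change at 24 h -0.37 to -0.17 and -0.70 to 0.16. The median share reached at 6 h was 39.4% to 58.0%. Choosing members with a pseudocount of 0.1 kept 105 of the 120. No named gene changed direction from 12 h to 24 h; 59 of 440 combinations of a gene and an alternative lost the call and 23 gained it. Depth limits the lowest values: 3 of the 120 genes had at most 3 reads in both 12 h libraries.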
